A study of Mus musculus with 15 samples.

Results

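Arg1 and Il4i1, the genes of 2 enzymes that consume amino acids and are linked to the cytokine IL-4, were followed across cultured mouse macrophages. They are 2 of the 754 genes counted by the nCounter Myeloid Innate Immunity panel (NanoString), in which a colour-coded probe binds each target RNA and bound probes are counted without amplification. Both were selected on counts already seen in these same samples, so their levels and differences below are given as descriptions with no test.

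The samples were bone marrow-derived macrophages (BMDMs) grown from femoral marrow with the growth factor M-CSF, and fell into 4 groups. MPLA (n = 4) had been conditioned for 4 days with 20 ng/mL of monophosphoryl lipid A, an agonist of Toll-like receptor 4, as M1-like standards. IL4 (n = 4) had been conditioned for 4 days with 20 ng/mL of IL-4 as M2-like standards. IRF5-NP (3 samples, numbered 1, 2 and 4) and eGFP-NP (4 samples) were IL-4-conditioned BMDMs that met nanoparticles, 1 µg by the labels, for 1 h. The IRF5 nanoparticles carried mRNA of the transcription factor IRF5 together with mRNA of its kinase IKKβ and of the reporter eGFP, and the control nanoparticles carried eGFP mRNA. By the methods of the study, both nanoparticle groups, unlike the standards, were sorted for strong eGFP signal and then kept in a lower dose of IL-4 until RNA isolation, so nanoparticles, sorting and the later culture cannot be told apart in any comparison with IL4. The methods state the dose as an amount of mRNA, which may not be the same quantity.

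Arginase 1, the product of Arg1, splits arginine into ornithine and urea and is a textbook marker of macrophages exposed to IL-4. The product of Il4i1, the gene named for its induction by IL-4, is a secreted L-amino acid oxidase that acts mainly on aromatic amino acids. IL-4 acts through the receptor chain Il4ra and the transcription factor Stat6, and the opposing inflammatory enzyme, nitric oxide synthase 2 (Nos2), draws on the same arginine.

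The RefSeq start regions of the Il4i1 locus are shown because RefSeq annotates overlapping genes there, and which of them the probe reads is not given in the sources used here. Il4i1 lies almost wholly (99.9% of its length) inside the longer RefSeq gene Il4i1b, which starts upstream, and their counts cannot be told apart. The sequences run from 250 bases before to 50 bases after each annotated start, on the plus strand of assembly GRCm38.p6, at chr7:44836038-44836337 for Il4i1 and chr7:44816120-44816419 for Il4i1b. Capitals mark the match to TTCNNNNGAA, the spaced palindrome that STAT6 prefers, which reads the same on both strands.
Il4i1: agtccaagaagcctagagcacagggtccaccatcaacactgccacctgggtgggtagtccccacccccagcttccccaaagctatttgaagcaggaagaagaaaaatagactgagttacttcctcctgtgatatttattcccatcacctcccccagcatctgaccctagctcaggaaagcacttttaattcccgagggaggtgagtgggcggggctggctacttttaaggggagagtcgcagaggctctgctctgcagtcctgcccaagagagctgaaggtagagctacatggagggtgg
Il4i1b: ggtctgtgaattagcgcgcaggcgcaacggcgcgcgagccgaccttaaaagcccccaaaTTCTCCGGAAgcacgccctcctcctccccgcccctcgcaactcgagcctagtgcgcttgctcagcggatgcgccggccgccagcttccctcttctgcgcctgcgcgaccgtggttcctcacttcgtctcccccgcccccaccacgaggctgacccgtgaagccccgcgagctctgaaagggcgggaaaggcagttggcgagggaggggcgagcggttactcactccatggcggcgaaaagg
The start region of Il4i1b held 1 match, beginning 191 bases before the start, and that of Il4i1 held none. Across 32851 RefSeq start regions of this length 6.95% held a match. The related motif TTCNNNGAA, in 8.3% of start regions, matched neither sequence. Arg1 was not in the table of start regions.

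Total gene counts per sample ranged from 266169 in IRF5-NP 4 to 1784833 in MPLA 1. The background limit of a sample, its 8 negative controls averaged plus 2 SD, was 19.7 to 34.9 counts, and a count over that limit was taken as measured. The counts of eGFP-NP 1 and 2 did not differ beyond sampling noise over genes with at least 40 counts in all (chi-square per degree of freedom 1.09), though they did at 100 or more (1.15), and were counted as 1 sample, named eGFP-NP 1-2, which left 14 libraries and n = 3 for eGFP-NP. MPLA 1 and 4, MPLA 2 and 3, IRF5-NP 1 and 2, and eGFP-NP 3 and 4 were also nearly identical, so fewer independent cultures than n may stand behind a group, and p-values measure only the spread between these samples. All 12 macrophage markers of the panel were above background in every library except IRF5-NP 4, where 11 were. The mean of 9 fibroblast markers was 11.66 to 11.76 log2 CPM (library-scaled counts, with a prior count of 2) in MPLA. It was 8.93 to 10.41 in IL4 1, 2 and 4 and 10.33 to 11.02 in IRF5-NP 4 and eGFP-NP 3 and 4, but only 3.98 to 4.16 in IL4 3, IRF5-NP 1 and 2 and eGFP-NP 1-2, where at most 2 of the 9 were above background. Of 7 dendritic cell, 14 granulocyte and 1 lymphocyte markers, at most 5, 6 and 1 were above background in a library. In bulk RNA, fewer macrophages and less RNA per macrophage cannot be told apart.

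Arg1 was high in IL4 and not measurable in MPLA. Its counts were 14, 17, 21 and 22 in MPLA 1 to 4, all below background. In IL4 1 to 4 they were 1762, 3264, 994 and 1330. In IRF5-NP they were 1415 and 1306 in samples 1 and 2 and 15, below background, in sample 4. In eGFP-NP 1 to 4 they were 430, 473, 65 and 51, all above background. Every IL4 sample thus exceeded every eGFP-NP sample, IRF5-NP 1 and 2 lay among the IL4 samples, and IRF5-NP 4 could not be told from MPLA by its count, although its background limit on the scaled level (6.17 log2 CPM) was higher than in the other libraries and its total was the lowest.

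Il4i1 was counted at far lower numbers with a narrower spread. In MPLA 1 to 4 its counts were 21, 31, 29 and 22, of which only that of MPLA 2 was above background. In IL4 1 to 4 they were 108, 53, 197 and 90. In IRF5-NP 1, 2 and 4 they were 122, 105 and 20, the last below background. In eGFP-NP 1 to 4 they were 123, 102, 30 and 26, the count of 30 standing just above a limit of 29.5. For Il4i1, unlike Arg1, IRF5-NP 1 and 2 and eGFP-NP 1 and 2 had nearly equal counts, and the nanoparticle samples spanned the range from background to the upper part of IL4.

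**Figure D1:**
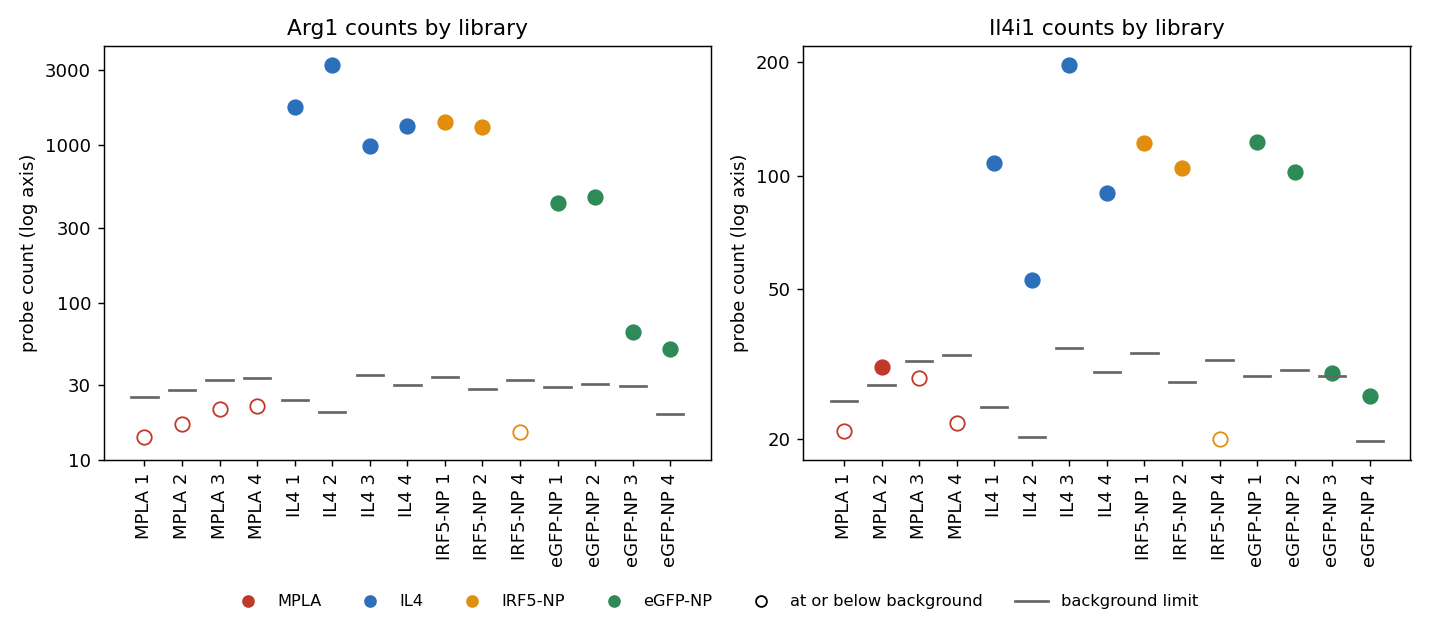
Probe counts (y, log axis) of Arg1 (left) and Il4i1 (right) in the 15 deposited samples (x), coloured by group, with open circles at or below the background limit of that sample (grey bars). Arg1 stands at 994 to 3264 in IL4 and 51 to 473 in eGFP-NP, while Il4i1 reaches 197 at most and overlaps between IL4 and both nanoparticle groups.

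Scaled to library size by TMM, mean Arg1 was 10.34 ± 0.70 log2 CPM (SD, n = 4) in IL4, 8.54 ± 2.99 (n = 3) in IRF5-NP, 6.86 ± 1.55 (n = 3) in eGFP-NP and 3.49 ± 0.26 (n = 4) in MPLA. In this order IL4 and IRF5-NP overlapped, as did IRF5-NP and eGFP-NP, while the lowest eGFP-NP library (5.92) was above the highest MPLA library (3.71). The wide SD of IRF5-NP came from sample 4, at 5.09 against 10.29 and 10.23 in samples 1 and 2. Mean Il4i1 was 6.32 ± 0.98 (n = 4) in IL4, 6.29 ± 0.70 (n = 3) in IRF5-NP, 5.53 ± 0.98 (n = 3) in eGFP-NP and 3.92 ± 0.30 (n = 4) in MPLA. The mean of IRF5-NP includes sample 4, at 5.49, which was below its background limit (6.17) and so not a measured level. IL4, IRF5-NP and eGFP-NP overlapped, and the lowest of their libraries (4.94, eGFP-NP 3) was above the highest MPLA library (4.28). However, eGFP-NP 3 stood just above its own background limit (4.92), and for IRF5-NP 4 a place above MPLA is not known.

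Comparing the standards asks how far conditioning separated both enzymes. Because no MPLA library measured Arg1, its difference is a bound: with MPLA set at its background limit, Arg1 was at least 74.8-fold higher in IL4 and at least 6.72-fold higher in eGFP-NP. Single IL4 libraries stood 47.0-fold (IL4 4) to 136-fold (IL4 2) above that limit, and eGFP-NP 1-2 stood 23.2-fold above it against 3.75-fold and 3.48-fold for eGFP-NP 3 and 4. IRF5-NP 1 and 2 were 72.2-fold and 69.5-fold above it, and IRF5-NP 4 did not measure Arg1, so no bound is given for that group. Il4i1 in IL4 was 4.50-fold above the MPLA limit, or above the measured count in MPLA 2, and single IL4 libraries were 2.23-fold (IL4 2) to 10.6-fold (IL4 3) above it.

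The fit across all 754 genes (edgeR's quasi-likelihood test, MPLA against IL4) gave a log2 difference of -7.12 ± 0.47 (SE) for Arg1 and -2.71 ± 0.51 for Il4i1, values that rest on MPLA counts mostly below background. They were the 6th and the 35th lowest of the 754. Both had groups that did not overlap, as had 15.1% of all genes in that direction, and 14.2% of all genes were called lower in MPLA and 12.2% higher at a Benjamini-Hochberg adjusted p under 0.05. With the mean of the fibroblast markers as a covariate the difference was -7.64 for Arg1 and -1.59 for Il4i1. The fibroblast marker mean did not overlap between these groups (11.66 to 11.76 in MPLA, at most 10.41 in IL4), so this covariate cannot be told apart from group. The part of fibroblast content in the members' differences was not tested. Of the 7 dendritic cell markers, 5 were called lower in MPLA, and their summed level was 276 to 334 CPM in MPLA and 883 to 1293 CPM in IL4. Most of it was Cd83 and Batf3, while the defining markers Clec9a, Xcr1 and Flt3 were above background only in IL4 2 (252, 56 and 39 counts). The part of such cells in the members' differences was not tested.

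The IL4 libraries ranked the members differently. IL4 2 held the highest Arg1 count of the study (3264) and the lowest Il4i1 count of its group (53), and IL4 3 held the lowest Arg1 count of its group (994) and the highest Il4i1 count of the study (197). The count of Arg1 per count of Il4i1, which can be compared between libraries but not read as a ratio of transcripts, was 16.3, 61.6, 5.05 and 14.8 in IL4 1 to 4. It was 11.6 and 12.4 in IRF5-NP 1 and 2 and 3.50, 4.64, 2.17 and 1.96 in eGFP-NP 1 to 4. Every eGFP-NP sample was thus below every IL4 sample and below both IRF5-NP samples in which the members were measured. IL4 2 also differed from IL4 1, 3 and 4 in other genes. It had 13 counts of the chitinase-like gene Chil3, 19 of Irf4 and 63 of Pparg, against at least 756, 108 and 451 in the other IL4 libraries.

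Comparing IRF5-NP with IL4 asks what the IRF5 nanoparticles did to cells that had seen IL-4. The fitted log2 difference was -0.91 ± 1.00 (SE) for Arg1 and -0.29 ± 0.62 for Il4i1, both within the spread between libraries, and both pairs of groups overlapped. Without IRF5-NP 4 the difference of Arg1 was -0.34 ± 0.50, and without IL4 3 that of Il4i1 was 0.27 ± 0.53, on the other side of 0. Over all genes, 0% were called by edgeR (0 of 754, with 53 at an unadjusted p under 0.05, 19 called by DESeq2 and 0 by limma), and in 8.75% the groups were separate in either direction. The Irf5 probe counted 1692 to 1986 in IL4, 2313, 2096 and 205 in IRF5-NP 1, 2 and 4, while eGFP-NP samples had 1046 to 2645. The delivered IRF5 mRNA was codon-optimised by the methods of the study, and whether the probe reads it is not given in the sources used here.

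Comparing eGFP-NP with IL4 gives the background of nanoparticle treatment, sorting and later culture without IRF5. Here Arg1 was lower, with a fitted log2 difference of -3.14 ± 0.87 (SE), and the groups did not overlap, as in 6.9% of all genes in that direction. Without the summed library eGFP-NP 1-2 the difference was -4.53 ± 0.65. Il4i1 had a difference of -0.93 ± 0.71 with overlapping groups, and of -0.23 ± 0.65 without IL4 3. Over all genes 0% were called (0 of 754 by edgeR, 84 at an unadjusted p under 0.05, 53 called by DESeq2 and 0 by limma).

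Comparing IRF5-NP with eGFP-NP asks what the IRF5 cargo added to the control particles. The fitted log2 difference was 2.18 ± 1.36 (SE) for Arg1, the 752nd lowest, that is among the highest, of the 754, and 0.63 ± 0.61 for Il4i1. Both pairs of groups overlapped, while the groups were separate, in either direction, for 14.7% of all genes, and 0% were called (0 of 754 by edgeR, 42 at an unadjusted p under 0.05, 7 called by DESeq2 and 0 by limma). Samples of the same number deviated together in these groups, but samples of unlike number were not compared, so pairing by number is not shown. A fit with a block for replicate number put the difference at 0.93 ± 0.59 for Arg1 and 0.12 ± 0.22 for Il4i1. That fit used only numbers 1, 2 and 4, without eGFP-NP 3, and took eGFP-NP 1 and 2 as separate samples. Its SEs may therefore be too small. Within number 1 the level of Arg1 was 3.20-fold higher in IRF5-NP (1415 against 430 counts) and within number 2 it was 2.91-fold higher (1306 against 473). Within number 4 Arg1 in IRF5-NP was below background (15 counts against 51), so no ratio is given. Il4i1 differed by -0.04 and 0.12 on the log2 scale within numbers 1 and 2. With numbers 1 and 2 nearly identical in both groups, the higher Arg1 in IRF5-NP was seen in what may be 1 pair of cultures.

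**Figure D2:**
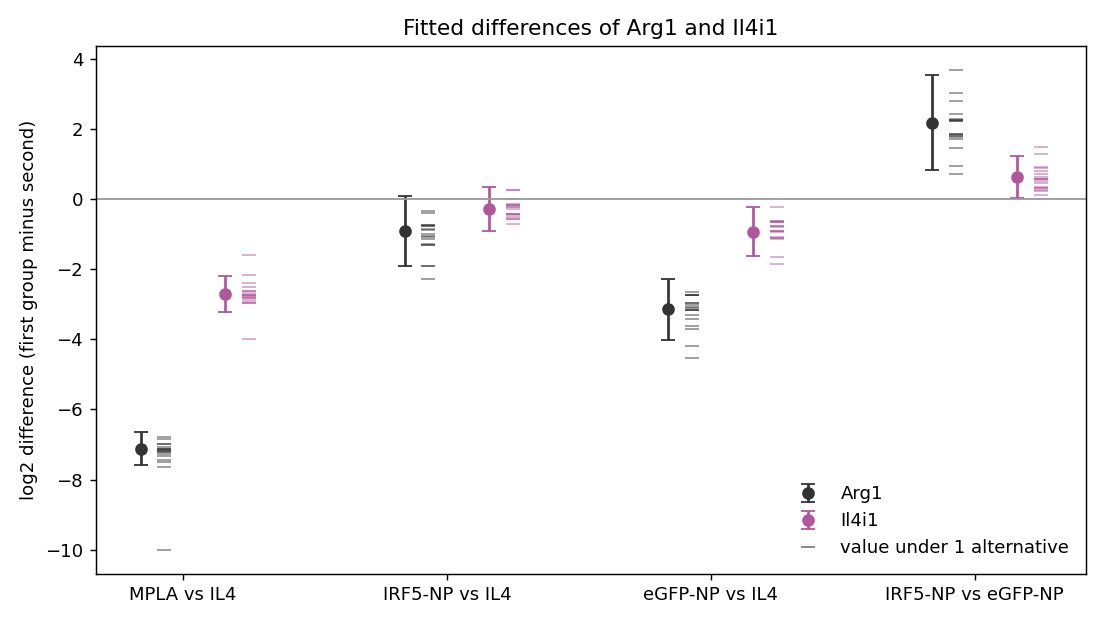
Log2 differences (y, first group minus second) of Arg1 (black) and Il4i1 (purple) in the 4 comparisons (x), with points for the edgeR fit, error bars of 1 SE and short bars for the value under each alternative processing. In MPLA against IL4 all values of both genes are below 0, and only Il4i1 in IRF5-NP against IL4 has alternatives on both sides of 0.

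To set the members against macrophage RNA rather than total RNA, their log2 CPM was taken relative to the mean of the 12 macrophage markers of the same library. Relative to this mean Arg1 was at -0.61, -0.79, -2.37 and -1.70 in IL4 1 to 4 and at -1.88 and -1.90 in IRF5-NP 1 and 2. It was at -3.40, -4.45 and -4.57 in eGFP-NP 1-2, 3 and 4, below every IL4 library and below IRF5-NP 1 and 2. IRF5-NP 4, below background, had a limit of -4.23, and MPLA, also below background, lay at -8.33 to -7.76. Among the 4 libraries nearly free of fibroblast markers, Arg1 was at -2.37 in IL4 3, -1.88 and -1.90 in IRF5-NP 1 and 2 and -3.40 in eGFP-NP 1-2.

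Il4i1 relative to macrophage markers overlapped among the IL-4-conditioned groups. It was at -4.62, -6.68, -4.70 and -5.55 in IL4 1 to 4, at -5.40 and -5.52 in IRF5-NP 1 and 2 and at -5.39, -5.53 and -5.51 in eGFP-NP 1-2, 3 and 4. IRF5-NP 4, below background, had a limit of -4.23. MPLA lay at -7.83 to -7.25, with only MPLA 2 above its limit. The counts of Il4i1 in eGFP-NP formed a high and a low pair, but on this scale their mean was -5.48 ± 0.08 (SD, n = 3). The values of eGFP-NP 3 and 4, nearly identical libraries, lay close above their background limits (-5.56 and -5.89). The small SD is therefore not a measure of how constant the level was. The macrophage marker mean itself was 12.06 in eGFP-NP 1-2 and 10.48 and 10.49 in eGFP-NP 3 and 4. Of its 12 genes, 5 were called between MPLA and IL4, 2 higher and 3 lower in MPLA (12.2% and 14.2% of all genes).

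**Figure D3:**
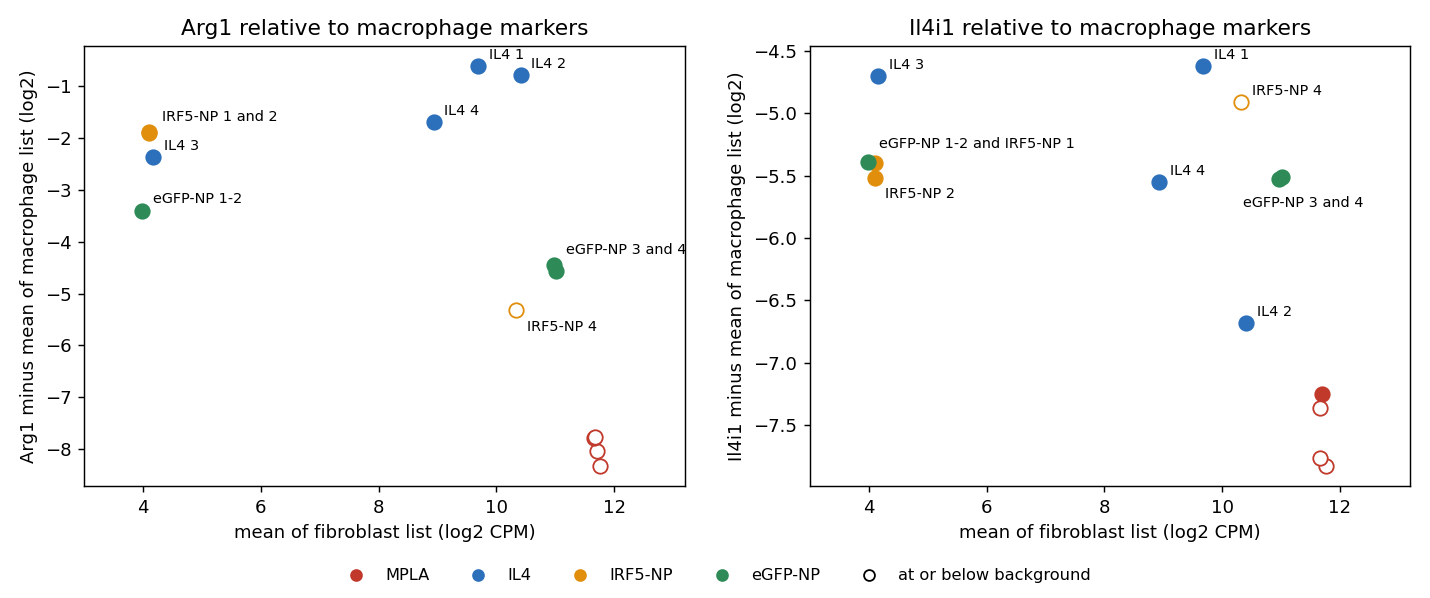
Level of Arg1 (left) and Il4i1 (right) minus the mean of 12 macrophage markers (y, log2) against the mean of 9 fibroblast markers (x, log2 CPM) in the 14 libraries, coloured by group, with open circles at or below background. For Arg1 the eGFP-NP libraries (-3.40 to -4.57) lie under all IL4 libraries, and for Il4i1 they lie within the IL4 range.

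Other enzymes of arginine and tryptophan use on the panel were few and weakly counted. Of the 4 besides the members, 0 were called higher in MPLA and 1 was called lower (12.2% and 14.2% of all genes). Their median log2 difference was 0.24 against -0.05 over all genes. Nos2 had counts of 253, 78, 102 and 230 in MPLA 1 to 4 and of 31, 221, 53 and 33 in IL4 1 to 4, so that IL4 2 reached the MPLA range and the log2 difference (0.49 ± 0.67 SE) was within the spread. In the nanoparticle samples Nos2 had 27 to 41 counts, and those of IRF5-NP 1 and 2 (27 and 28) were below background. Gch1, which makes the cofactor of nitric oxide synthases, had 117 to 197 counts in MPLA and 32 to 132 in IL4 (log2 difference 0.37 ± 0.40). The tryptophan-degrading enzymes Ido1 and Ido2 were not measurable: Ido1, the 1 gene called lower (log2 difference -0.93 ± 0.28, adjusted p = 0.0444 by edgeR's quasi-likelihood test), was above background in 1 of the 15 samples and lost its call in 13 of 20 alternatives, and Ido2 was above background in 0 samples.

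Of 8 genes of the receptor pathway that carries the IL-4 signal, 0 were called higher and 1 lower in MPLA, a share near the 14.2% of all genes called lower, with a median log2 difference of 0 against -0.05 over all genes. Socs1, a feedback inhibitor of cytokine signalling, fell, with 306 to 370 counts in MPLA and 398 to 1882 in IL4 (log2 difference -2.01 ± 0.39 SE, adjusted p = 0.00918, edgeR). Stat6 (0.03 ± 0.17) and the receptor chain Il4ra (-0.46 ± 0.41) did not pass the test. The RNAs of the cytokines Il4 and Il13 were below background in all samples. Jak3, Pik3cg and Socs3 had differences of -0.03 ± 0.26, 0.28 ± 0.17 and 0.85 ± 0.66.

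Of 16 transcriptional and cytokine regulators, 1 was called higher and 4 lower in MPLA (12.2% and 14.2% of all genes). Their median log2 difference was -0.58, against -0.05 over all genes. Hif1a, the oxygen-sensing factor, rose, with 11248 to 15623 counts in MPLA against 1177 to 5004 in IL4 (log2 difference 1.70 ± 0.37). Pparg (-3.04 ± 0.65), the lipid-sensing nuclear receptor, and Egr2 (-3.16 ± 0.73) fell, although the scaled level of IL4 2, with 63 and 38 counts, lay in the MPLA range for both. Irf4, a factor induced by IL-4, was below background in all MPLA libraries and in IL4 2, and had 108, 190 and 188 counts in IL4 1, 3 and 4. Irf5 fell by 1.07 ± 0.21 on the log2 scale. Of 20 alternatives, 7 ended the call of Egr2, 6 each those of Hif1a, Irf4 and Irf5 and 5 that of Pparg. Cebpb (0.42 ± 0.25), a factor known to act on Arg1, did not pass the test. Nor did Stat3 (0.37 ± 0.28), Klf4, Myc, Nfkb1, Nr4a1, Irf8, Tgfb1, Il10 or Il10ra, and Il10 was above background only in IL4 2.

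Among 24 genes known to be induced by IL-4, listed without the members, 17 were called lower and 1 higher in MPLA (14.2% and 12.2% of all genes). The list was chosen with earlier results of these data known, so its share of calls is only a description. In 15 the groups did not overlap, with MPLA below IL4, as in 15.1% of all genes. The median log2 difference of the list was -2.87, or -2.36 with MPLA set at its background limit for the 10 genes measured in some IL4 library but in no MPLA library. Cd209e and Alox15 were measured in neither group. The secreted Retnla (at least 594-fold higher in IL4), the ribonuclease Rnase2a (at least 249-fold), the receptor Flt1 (at least 16.3-fold) and the chemokine Ccl24 (at least 9.43-fold) were among those 10. The bound of Arg1 (74.8-fold) lay between those of Rnase2a and Flt1, and bounds do not order the true differences. The chitinase-like Chil3 and Chil4 had 756 to 2821 and 797 to 2630 counts in IL4 1, 3 and 4 and were below background in IL4 2. Mrc1, the mannose receptor, fell by 2.92 ± 0.64 on the log2 scale, Clec7a, the beta-glucan receptor, by 3.70 ± 0.50, and the fatty acid transporter Cd36 fell by 2.82 ± 0.69. The chemokines Ccl22, Ccl8 and Ccl11, the ribonuclease Ear3, the integrin Itgax, the checkpoint ligand Pdcd1lg2, the cadherin Cdh1 and the transglutaminase Tgm2 were the other genes called lower. Ccl24 and Flt1 kept their calls in all 20 alternatives, whereas Itgax, Cdh1 and Pdcd1lg2 lost theirs in 14, 13 and 13, Tgm2 in 10, Ccl11 and Ccl22 in 9 each and Cd36 in 9 of 19. Stab1, a scavenger receptor, was the gene that rose (1.21 ± 0.30), a call lost in 11 of 20. Ccl17, a chemokine, was at 0.39 ± 0.42. The count of 17 became 18 without IL4 2, 9 to 10 without any one MPLA library, 8 with the fibroblast covariate, 4 by the methods' t-test and 2 with nearly identical pairs summed, in a fit of 2 against 4 libraries.

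**Figure D4:**
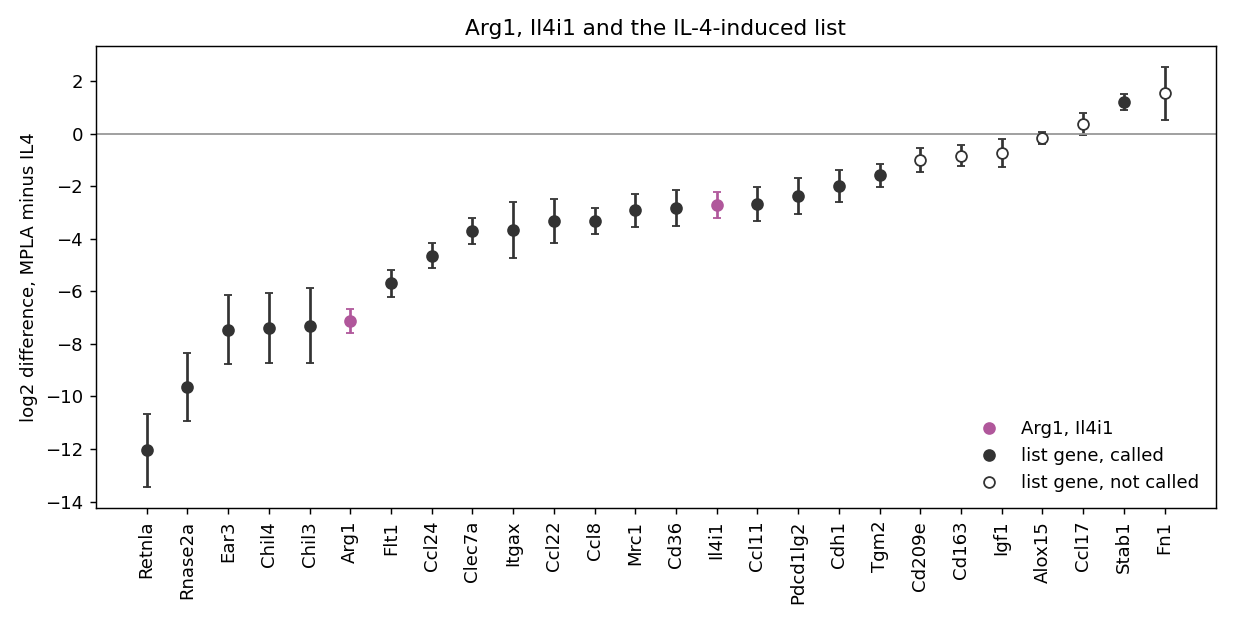
Log2 difference, MPLA minus IL4 (y), of Arg1 and Il4i1 (purple) and the 24 genes of the IL-4-induced list (black, filled where called by edgeR) in order of size (x), with error bars of 1 SE. Arg1 (-7.12) lies beside Chil3 and Flt1 and Il4i1 (-2.71) beside Cd36 and Ccl11, and the values of genes not measured in MPLA depend on counts below background.

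In the nanoparticle comparisons 0 genes of any of these lists were called by edgeR. Of the IL-4-induced list, 6 of 24 had an unadjusted p under 0.05 in IRF5-NP against IL4, 6 in eGFP-NP against IL4 and 2 in IRF5-NP against eGFP-NP, and DESeq2 called 4, 5 and 0. Over all 754 genes, 53, 84 and 42 had an unadjusted p under 0.05. DESeq2 called 19 of all genes in IRF5-NP against IL4 and 53 in eGFP-NP against IL4. The medians of the list were 0.06, -0.46 and 0.60, against -0.14, -0.08 and 0.10 over all genes. The list did not vary as 1 group. Retnla had 1532 to 55590 counts in IL4 and 5 to 238 in IRF5-NP, while eGFP-NP samples had 39 to 139. Chil3 had 13 to 2821 counts in IL4 but 5084 and 4874 in IRF5-NP 1 and 2 and up to 10897 in eGFP-NP. Arg1 in IRF5-NP 1 and 2 was within its IL4 range, unlike either of these genes but like others of the list, among them Mrc1 and Tgm2.

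The genes whose log2 CPM followed the members most closely were ranked over all 14 libraries among 548 genes above background in at least 50% of them. The points share library, depth and cell makeup, and the values are descriptions. For Arg1 the 5 highest included the proton-sensing receptor Gpr65 (Pearson r = 0.94), the Fc receptor Fcgr3 (0.90) and Flt1 (0.89). For Il4i1 they included the transcription factors Batf3 (0.95, also on the dendritic cell list) and Irf4 (0.94), the LIM-domain gene Crip1 (0.91) and Chil4 (0.89). The members themselves had r = 0.85 and Spearman rho = 0.75 over 14 libraries, of which the 4 MPLA libraries were low in both, and r = 0.60 and rho = 0.37 over the 10 IL-4-conditioned libraries.

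**Figure D5:**
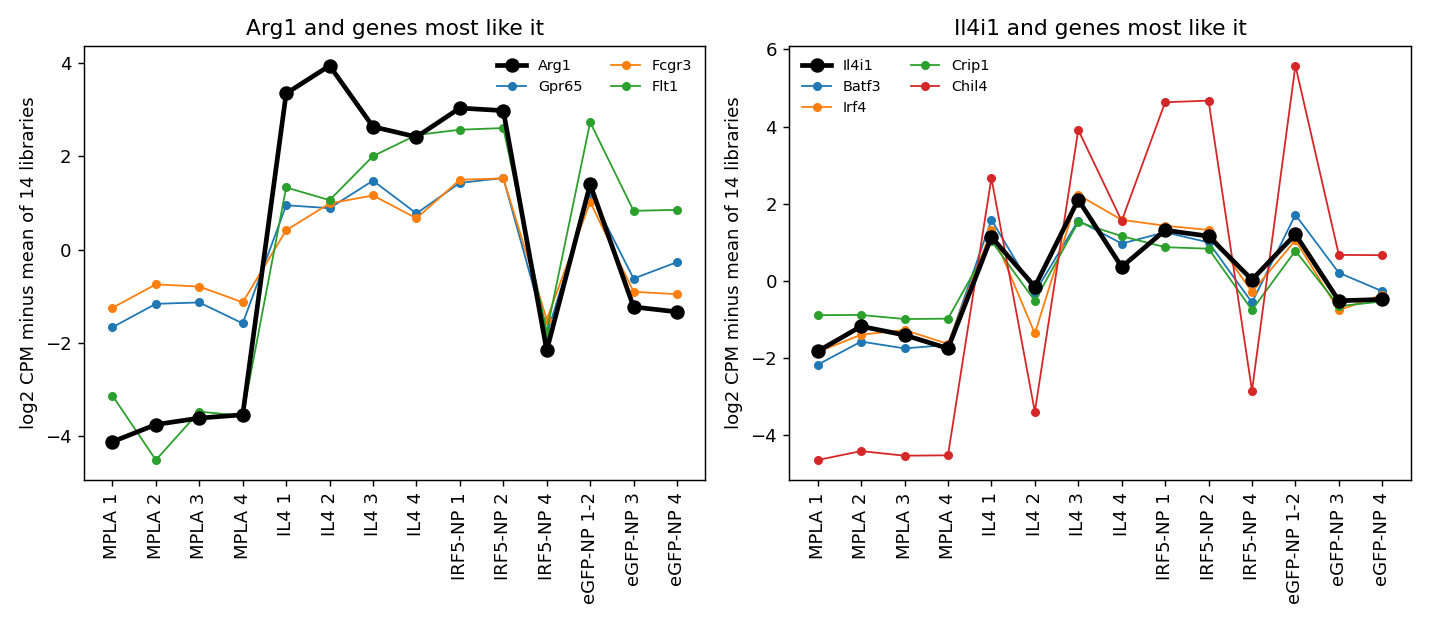
Log2 CPM minus the mean of 14 libraries (y) by library (x) for Arg1 (left, thick black) and Il4i1 (right, thick black) and genes among the 5 most like each (3 for Arg1, 4 for Il4i1). All lines are below 0 in MPLA. Arg1 is highest in IL4 2, where Il4i1, Irf4 and Chil4 dip, and every line is lower in IRF5-NP 4 than in IRF5-NP 1 and 2.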

How the data were processed

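The authors deposited raw whole-number probe counts of 768 probes (754 genes, 6 positive and 8 negative controls) for 15 samples, with no normalization. The methods name housekeeping scaling, log2 values and t-tests with Benjamini-Yekutieli adjustment, which was run as an alternative. Lane and cartridge are not given in the sources used here. The labels gave the groups and replicate numbers. Genes were compared on the deposited counts by edgeR 4.0.16 (R 4.3.3, glmQLFit and glmQLFTest, TMM, the 2 groups of each comparison, no filter on low counts, Benjamini-Hochberg adjusted p under 0.05, two-sided). SE is the size of the log2 difference over the root of the F statistic. Levels are log2 CPM with a prior count of 2. Replicates were compared by chi-square over genes whose 2 counts summed to 40 or more, and eGFP-NP 1 and 2 were summed. Alternatives included DESeq2 1.42.0, limma 3.58.1, other scalings, leaving out each library and, chosen after the data were seen, subtraction of the negative control mean. The members and lists were chosen with earlier results of these data known. The named genes were the members, the enzyme, receptor pathway and regulator lists, the called IL-4-induced genes and the 5 genes most like each member, and some of these are not reported here. Genes outside that rule (Ccl17 and those of IL4 2) were chosen after their values were seen. IRF5-NP and eGFP-NP samples of the same number correlated in their deviations from the group means (0.823, 0.821 and 0.818 for numbers 1, 2 and 4), and a block was fitted for this comparison. Samples of unlike number were not compared in this way. Block fits used the unsummed samples of the numbers found in both groups. In GRCm38.p6, 744 gene names were current symbols, 9 were synonyms and 1 was neither. Start regions and their sequences are from RefSeq, GRCm38.p6. In RefSeq, Arg1 overlaps the non-coding gene Gm40616 over 39% of its length, and which strand a probe reads was not given in the sources used here.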

Additional observations from a re-analysis of the deposited data

How the results depend on the processing

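The methods' t-test was run for counts of genes only. The other alternatives kept the direction of Arg1 in all 4 comparisons, with log2 differences of -10.00 to -6.78 in MPLA vs IL4, -2.29 to -0.34 in IRF5-NP vs IL4, -4.53 to -2.66 in eGFP-NP vs IL4 and 0.70 to 3.68 in IRF5-NP vs eGFP-NP. Il4i1 ranged over -4.00 to -1.59, -0.71 to 0.27, -1.84 to -0.23 and 0.12 to 1.47. In IRF5-NP vs IL4 it turned to 0.27 with the replicate number as a block. Leaving out 1 library at a time moved it from -0.50 to 0.27, the turn being without IL4 3. The block fit also leaves out IL4 3, which has no IRF5-NP sample of its number, so these turns are not separate. In MPLA vs IL4, subtracting the negative control mean gave -10.00 for Arg1 and -4.00 for Il4i1, and the fibroblast covariate gave -1.59 for Il4i1. Leaving out 1 library moved Arg1 in eGFP-NP vs IL4 from -4.53 to -2.66. The cause of these moves was not tested.

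The background counts moved more. In MPLA vs IL4 the 199 genes called became 86 with positive control scaling, 21 by the methods' t-test (121 after Benjamini-Hochberg), 123 with all 4 groups in one fit, 95 with the replicate block, 20 with nearly identical pairs summed, 83 with the fibroblast covariate, 125 with negative controls subtracted, and 74 (without MPLA 1) to 295 (without IL4 2) on leaving out 1 library. In IRF5-NP vs IL4 the 0 became 12 with positive control scaling, 19 by DESeq2 and 2 with all groups in one fit. In eGFP-NP vs IL4 it became 2, 53 and 17 under these settings, 1 by the t-test, 6 with eGFP-NP 1 and 2 separate, 1 with nearly identical pairs summed and 0 to 2 on leaving out 1 library. In IRF5-NP vs eGFP-NP it became 7 by DESeq2, 1 with all groups in one fit, 2 with eGFP-NP 1 and 2 separate and 16 with the fibroblast covariate.

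In the other 3 comparisons same-numbered samples did not all correlate above 0.1, so the numbers were not taken as pairs, and the replicate block values there are given only here. With the block, 7 in place of 17 genes of the IL-4-induced list were called lower in MPLA. Housekeeping and positive control scaling moved the median of all genes by -0.28 and -0.18 in MPLA vs IL4, 0.12 and -0.60 in IRF5-NP vs IL4, -0.21 and -1.09 in eGFP-NP vs IL4 and 0.29 and 0.51 in IRF5-NP vs eGFP-NP. Arg1 in MPLA and IRF5-NP 4, and Il4i1 in IRF5-NP 4 and in 3 of the 4 MPLA libraries, lay below the negative control limit, where counts have no order.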
